A study of Drosophila melanogaster with 12 samples.

Results

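The genes described here encode the proteins of the cytosolic ribosome, the proteins of the mitochondrial ribosome and the initiation and elongation factors of translation in heads of the fruit fly Drosophila melanogaster. They were taken by name: a probe belonged to the set if its single gene symbol, brought up to date through the Entrez identifier, started with RpL, RpS, RpLP, mRpL, mRpS, eIF or eEF, and kinases and RNA polymerase subunits were left out. This gave 101 genes on 122 probes, out of 6793 genes on 7558 probes with 1 symbol. The cytosolic ribosome had 23 genes on 36 probes, the mitochondrial ribosome 48 genes on 54 probes and the translation factors 30 genes on 32 probes. RpL32 alone held 10 of the probes, of which 9 never gave a value.

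Unmated Oregon-R wild type males ate normal food or food holding pentylenetetrazole (PTZ), a drug that provokes seizures, at 8 mg/ml together with levetiracetam (LEV), an antiepileptic drug, at 5 mg/ml, with 30 flies in a vial. Head RNA was compared on 12 two-colour cDNA arrays, 4 for each of 3 times: 12 h on both drugs, 2 d on both drugs, and 7 d, made up of 4 days on the combination followed by 3 on PTZ without LEV. Each array set a treated pool of heads against the pool of flies on normal food of its own parallel set. These 4 sets are taken here as biological replicates. At 2 d the array titles number all 4 replicates. At 12 h and 7 d the titles number just replicates 1 and 2. The other arrays of those times are titled as dye swaps without a number, and were numbered 3 and 4 here in listed order. Their titles do not say whether they are biological replicates. The treated sample carried Cy5 on replicates 1 and 2 and Cy3 on replicates 3 and 4. The stated age is 3 to 4 days, but by the growth protocol males were first kept for 10 to 11 days on normal food, so the age is uncertain. One passage of the series text puts LEV in the final food, whereas the treatment protocols put PTZ there, which is followed here. The titles differ too. Those of 7 d replicates 1 and 2 name PTZ and LEV only, and those of the dye-swapped 7 d arrays name PTZ again after the combination. All groups share the wild type genotype, and no group received PTZ alone from the start or LEV alone. Whole heads hold eye, brain, fat body and muscle together, so fewer cells of a type and less RNA per cell cannot be told apart in any value below.

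Ribosomes translate messenger RNA in all cells. The cytosolic ribosome is built from a large subunit, whose proteins are named RpL, and a small subunit, whose proteins are named RpS. Mitochondria carry a ribosome of their own, made of mRpL and mRpS proteins that are encoded in the nucleus and imported, and it translates the few respiratory chain subunits that the mitochondrial genome encodes. Initiation factors (eIF) bring messenger, initiator tRNA and ribosome together, and elongation factors (eEF) carry the cycle of adding amino acids. Cytosolic ribosomal protein messengers are among the most abundant in most tissues.

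Values are the log2 ratios that the authors deposited, with the pair of adjacent spots of a probe averaged and each array centred on its own median over all probes, so that 0 stands for the middle probe of that array. Which dye stands on top of the ratio is not stated in the sources used here. The main reading takes every ratio as Cy5 over Cy3 and turns the sign of replicates 3 and 4, so that a value above 0 means more signal in the treated sample. The other reading takes the ratios as deposited, as if they were already treated over control. Replicates 1 and 2 read the same way in both. Because no source settles the choice, the mean of each tested gene is given in both readings, and no gene is said to have gone up or down.

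Coverage differed widely between the 3 kinds of gene. A value on at least 1 of the 12 arrays was present for 80 of the 101 genes (79.2%, against 69.3% of all genes with 1 symbol), but 35 of the 101 were measured on just 1 array. The cytosolic ribosome was the best covered, with a median of 3 arrays per gene, followed by the translation factors with 2 and the mitochondrial ribosome with 1. A value on at least 3 of the 4 arrays of a time, the condition for a test, was reached at some time by 10 of 23 cytosolic genes (43.5%), 7 of 30 factor genes (23.3%) and 3 of 48 mitochondrial genes (6.25%). Among all genes with 1 symbol the share was 6.86%. Of the 20 tested members, 15 were tested at 12 h, 11 at 2 d and 8 at 7 d, and 4 at every time, namely RpL27, mRpS34, eEF5 and eIF4G1. The filter asks for measured spots and not for a difference, and everything said of tested genes leaves out the members without enough spots.

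**Figure D1:**
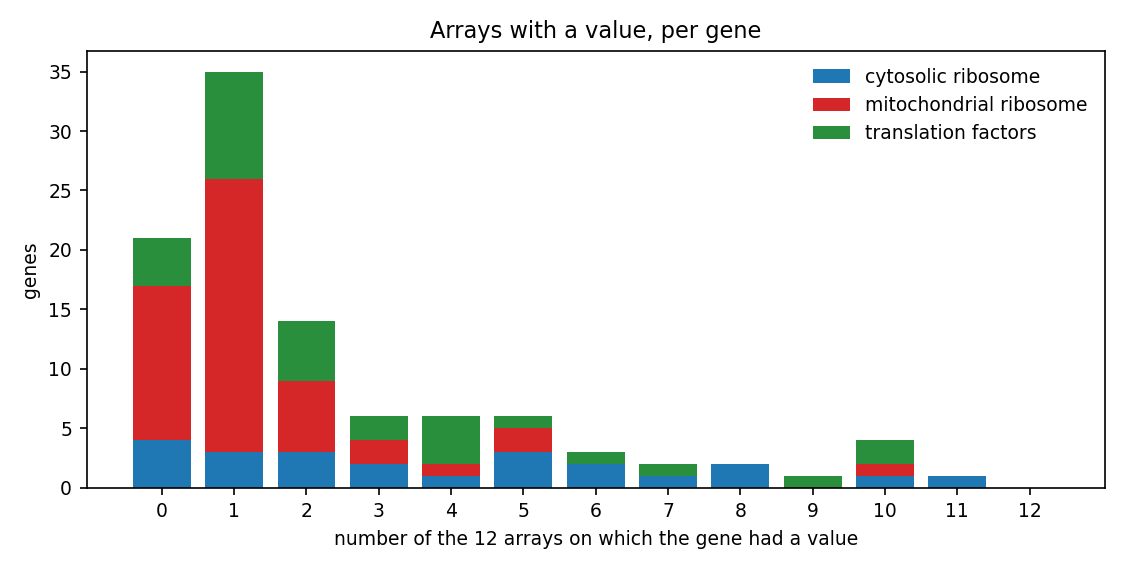
Number of genes (y axis) by how many of the 12 arrays gave a value (x axis), stacked by list. Most genes of the mitochondrial ribosome stand at 0 or 1 array, while RpL27 reaches 11 arrays and no gene reaches 12.

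Arrays held between 1394 and 14042 of 27648 spots with a value, and the array with the most was 7 d replicate 4. The number of arrays limits the precision, and the brightness of the spots is unknown, since intensities were not used here. This 7 d array supplied the only value of 25 of the 101 genes, 17 of them mitochondrial. The array medians that were removed ran from -0.69 to 0.85. Head markers had values for 6 of the 6 eye genes on the array, among them Arr1, Arr2 and trpl, for the neuronal gene nSyb, for 2 of 3 glial genes, 3 of 6 fat body genes and 2 of 3 muscle genes, while the 3 testis genes Mst87F, bam and dj had none on any array. The paired spots of a probe differed by a median of 0.230 log2 units for the cytosolic ribosome, 0.342 for the mitochondrial ribosome and 0.266 for the factors, against 0.380 for all probes.

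After centring, probes that carry a gene name did not lie at 0 on every array. The median of the named probes tested at a time ran from -0.21 to 0.16 on the 12 h arrays, reached -0.56 on 2 d replicate 2, and stood at 0.21 and 0.48 on 7 d replicates 3 and 4. The part of this offset in the values below was not tested. Its size is printed beside some of them. A centring on the named probes, chosen after the data were seen, is given for part of the values. At 7 d that centring lowered the turned mean of every tested member. mRpS34 went from -0.036 to -0.26 and eEF1alpha2 from 0.68 to 0.46. RpS28b went from 0.45 to 0.29, RpS15Ab from 0.26 to 0.11 and eIF3f1 from 0.55 to 0.32. The 7 d mean of the factor list went from 0.28 to 0.12.

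At 12 h, 2 d and 7 d no member differed from 0 after adjustment over all probes, in either reading. In limma with Benjamini-Hochberg adjustment at a threshold of 0.05, 0 of 1283 probes passed at 12 h, 0 of 1001 at 2 d and 0 of 865 at 7 d (0% called, in both readings), and a SAM-type statistic also called 0 at each time. At an unadjusted p below 0.05 in the turned reading, 58 probes (4.52%) stood out at 12 h, 16 (1.6%) at 2 d and 34 (3.93%) at 7 d. The members among them were 1 of 15 at 12 h, which was mRpS34, 0 of 11 at 2 d and 0 of 8 at 7 d. As deposited, the unadjusted p was below 0.05 for 103 probes (8.03%) at 12 h, 133 (13.3%) at 2 d and 69 (7.98%) at 7 d. Members made up 1 of 15 there at 12 h, which was eIF3g1, 1 of 11 at 2 d, which was mRpS34, and 0 of 8 at 7 d. In the turned reading the members' adjusted p in limma lay between 0.703 and 0.997 for 12 h. For 2 d it lay between 0.995 and 0.999, and for 7 d between 0.923 and 0.987. As deposited, the limits were 0.592 and 0.999, then 0.250 and 0.989, then 0.640 and 0.845.

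Sign agreement over every measured array of a time is set against that of all probes. Turned, it was reached by 4 of 15 members at 12 h, where 18.4% of all tested probes reached it, by 0 of 11 at 2 d (8.59% of all) and by 2 of 8 at 7 d (15.5% of all). As deposited, the counts were 4 of 15 at 12 h (21.5% of all), 6 of 11 at 2 d (31.5% of all) and 4 of 8 at 7 d (27.1% of all). Agreement is easier to reach with 3 values than with 4, and these shares are not split by number of values. At 7 d every agreeing member in either reading had 3 values, whereas 603 of the 865 probes had 4. At 2 d the agreeing RpL39, RpS12, mRpL37 and mRpS34 had 3 values, and RpS7 and eIF3f1 had 4. The counts are therefore not a like comparison with all probes.

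**Figure D2:**
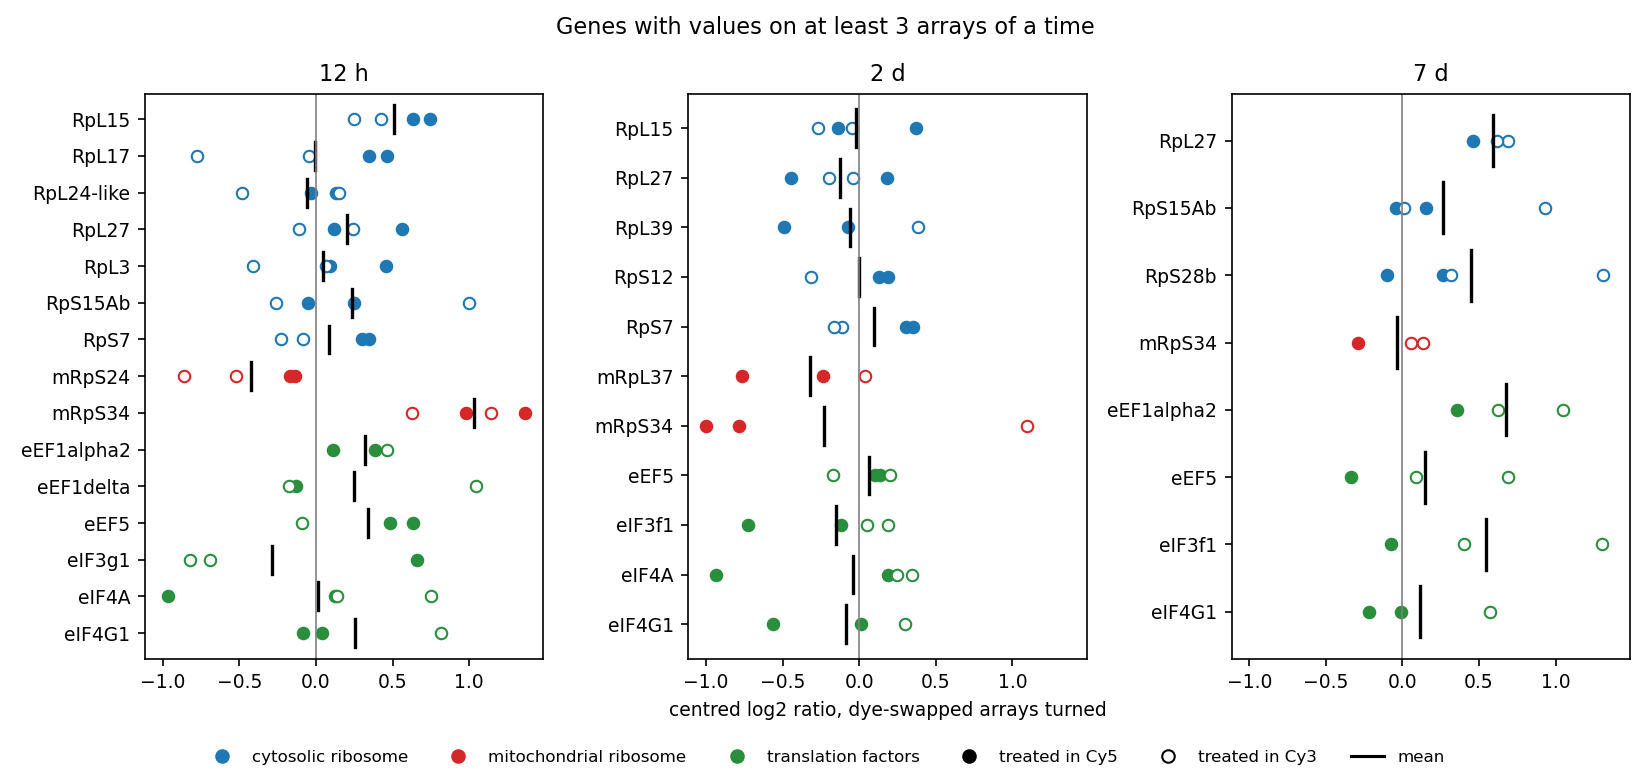
Centred log2 ratio (x axis, dye-swapped arrays turned) of each gene with values on at least 3 arrays at 12 h, 2 d and 7 d. Filled points are arrays with the treated sample in Cy5, open points those with it in Cy3, black bars the means over arrays. mRpS34 stands furthest above 0 at 12 h, and at 2 d its open and filled points lie on opposite sides of 0.

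RpL15, a large-subunit protein, had the highest 12 h mean of the cytosolic ribosome. Its centred log2 ratios on replicates 1 to 4 at 12 h were 0.74, 0.63, 0.43 and 0.25, a mean of 0.51 ± 0.22 (SD, n = 4) and an adjusted p of 0.867 in limma. All 4 arrays lay above 0 in the turned reading, and the mean as deposited was 0.18 ± 0.60 (SD, n = 4). At 2 d the arrays gave 0.37, -0.14, -0.045 and -0.27, a mean of -0.019 ± 0.28 (SD, n = 4), and 0.14 ± 0.23 (SD, n = 4) as deposited. Turned, only replicate 1 was above 0 at that time. At 7 d RpL15 was measured on the Cy3-treated arrays alone, at 0.61 and 0.99 turned and with the opposite sign as deposited. Named probes on 10 to 12 arrays had turned medians of 0.73 and 0.75 on the same arrays.

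RpL27, also of the large subunit, was measured on 11 arrays, the most of any member. At 12 h its values were 0.56, 0.12, 0.24 and -0.11, a mean of 0.20 ± 0.28 (SD, n = 4), or 0.14 ± 0.33 as deposited. At 2 d they were 0.18, -0.44, -0.038 and -0.19, a mean of -0.12 ± 0.26 (SD, n = 4), or -0.0072 ± 0.30 as deposited. At 7 d replicates 2, 3 and 4 gave 0.46, 0.69 and 0.62, a mean of 0.59 ± 0.12 (SD, n = 3) with an adjusted p of 0.923. The 7 d values all lay above 0 and showed little spread in the turned reading, but as deposited the mean was -0.28 ± 0.65 (SD, n = 3), and with arrays centred on named probes it was 0.37 ± 0.20 (SD, n = 3). From 2 d to 7 d RpL27 differed by 0.71 log2 units (SE 0.43, adjusted p = 0.984 in limma over the 12 arrays), where the median over all 658 probes of that contrast was 0.12. Just 36 genes with 1 symbol were tested at every time, so that median rests largely on probes without a gene name. Named probes on 10 to 12 arrays, the coverage of RpL27, had turned medians of 0.73 and 0.75 on 7 d replicates 3 and 4. RpL27 lay below both, and the part of this offset in its 7 d values was not tested. As deposited the RpL27 difference was -0.27 (adjusted p = 0.987 in limma), of the opposite sign.

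RpL17, RpL3 and RpL24-like were tested at 12 h only. RpL17, a large-subunit protein, gave 0.34, 0.46, -0.044 and -0.78, so both Cy5-treated arrays stood above both Cy3-treated ones. Turned, its mean was -0.0041 ± 0.56 (SD, n = 4), while as deposited all 4 arrays were above 0 at 0.41 ± 0.30 (SD, n = 4). RpL3, which lines the peptidyl transferase centre of the large subunit, gave 0.46, 0.089, 0.063 and -0.41, a mean of 0.048 ± 0.36 (SD, n = 4) turned and 0.22 ± 0.25 as deposited. RpL24-like, whose relative in yeast is a factor of ribosome assembly and not a part of the finished ribosome, gave 0.13, -0.032, 0.15 and -0.48, a mean of -0.059 ± 0.29 (SD, n = 4) turned and 0.11 ± 0.27 as deposited. In the turned reading, replicate 4 was the lowest 12 h array for RpL15, RpL27, RpL17, RpL3 and RpL24-like, and the named probes tested also had their lowest 12 h median there, at -0.21.

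RpL39, a small protein of the exit tunnel, was tested at 2 d, where replicates 1, 2 and 3 gave -0.072, -0.49 and 0.38. Its mean was -0.060 ± 0.44 (SD, n = 3) turned and -0.32 ± 0.22 (SD, n = 3) as deposited, where all 3 arrays lay below 0. With arrays centred on named probes the 2 d mean was 0.075 ± 0.17 (SD, n = 3), and its lowest array, replicate 2, was the one where named probes had their median at -0.56. A second RpL39 probe was measured on 7 d replicate 4 alone, where it read 0.25 and the first 1.16.

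Of the small subunit, RpS7 was measured on all 8 arrays of 12 h and 2 d and on none of 7 d. At 12 h it gave 0.34, 0.30, -0.085 and -0.23, and at 2 d 0.31, 0.35, -0.11 and -0.17. At both times the Cy5-treated arrays were above 0 and the Cy3-treated ones below it. The turned means were therefore small, 0.083 ± 0.28 (SD, n = 4) and 0.096 ± 0.27 (SD, n = 4), whereas the means as deposited were 0.24 ± 0.11 at 12 h and 0.23 ± 0.11 at 2 d (SD, n = 4), with all 8 arrays above 0. RpS12 followed the same pattern at 2 d with 0.19, 0.13 and -0.32, a turned mean of 0.00083 ± 0.28 (SD, n = 3) and a mean as deposited of 0.21 ± 0.095 (SD, n = 3). With arrays centred on named probes the turned 2 d spread was wider, at 0.17 ± 0.55 for RpS7 (SD, n = 4) and 0.14 ± 0.57 for RpS12 (SD, n = 3). A second RpS12 probe was measured on 7 d replicate 4 alone, where it read -0.71 and the first 0.79. A steady dye preference of a probe and a drug effect read as deposited give the same values here and cannot be told apart without the direction of the ratio.

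RpS15Ab and RpS28b each have a close paralog in the genome, so their cDNA probes may share signal with it. RpS15Ab gave -0.049, 0.25, 0.999 and -0.26 at 12 h, a mean of 0.23 ± 0.55 (SD, n = 4), and 0.16, -0.042, 0.0080 and 0.93 at 7 d, a mean of 0.26 ± 0.45 (SD, n = 4). Both means had the opposite sign as deposited, at -0.13 ± 0.59 and -0.21 ± 0.49 (SD, n = 4). A single Cy3-treated array stood apart at each of these times. RpS15Ab has a second probe, measured on the same 8 arrays, and the pair had the same sign on 4 of the 8, with a median difference of 0.81 and a largest difference of 2.42 log2 units. No direction can be given for RpS15Ab from these probes. RpS28b gave 0.26, -0.10, 1.31 and 0.32 at 7 d, a mean of 0.45 ± 0.60 (SD, n = 4) turned and -0.37 ± 0.67 (SD, n = 4) as deposited, with replicate 3 far above the others.

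Of the mitochondrial ribosome, mRpS34, a small-subunit protein, was tested at all 3 times. At 12 h its values were 0.98, 1.37, 1.14 and 0.63, a mean of 1.03 ± 0.31 (SD, n = 4), with an unadjusted p of 0.0060 in limma and an adjusted p of 0.703. As deposited the 12 h mean was 0.14 ± 1.22 (SD, n = 4, adjusted p = 0.948), with 2 of 4 arrays above 0. All 4 arrays lay above 0.6 in the turned reading, but the paired spots behind these values differed by a median of 0.885 and by 2.16 on replicate 3. At 2 d its values on replicates 1, 2 and 3 were -0.997, -0.79 and 1.10, a turned mean of -0.23 ± 1.15 (SD, n = 3). As deposited, all 3 arrays lay near -0.96 ± 0.16 (SD, n = 3) with an unadjusted p of 0.013 and an adjusted p of 0.250, and the paired spots differed by a median of 0.156.

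The Cy5-treated arrays of mRpS34, which read alike in both readings, went from a mean of 1.17 at 12 h to -0.89 at 2 d. At 7 d, replicates 1, 3 and 4 gave -0.29, 0.13 and 0.054, a mean of -0.036 ± 0.23 (SD, n = 3) turned and -0.16 ± 0.12 as deposited. Fitted over all 12 arrays, the turned difference from 12 h to 2 d was -1.26 (SE 0.60, adjusted p = 0.997 in limma) and that from 12 h to 7 d was -1.07 (SE 0.60, adjusted p = 0.907). The 3 contrasts between times called 0 of 658 probes (0%). As deposited, mRpS34 differed by -1.10 from 12 h to 2 d (adjusted p = 0.937) and by -0.30 from 12 h to 7 d (adjusted p = 0.951). The 3 times used separate flies and separate control pools.

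The other tested mitochondrial genes were mRpS24 and mRpL37. mRpS24, of the small subunit, gave -0.17, -0.14, -0.86 and -0.52 at 12 h, a mean of -0.42 ± 0.34 (SD, n = 4) with an adjusted p of 0.867 in limma. All 4 arrays lay below 0, opposite to mRpS34 of the same subunit on the same arrays, while the mean as deposited was 0.27 ± 0.51 (SD, n = 4). mRpL37, of the large subunit, gave -0.23, -0.77 and 0.038 at 2 d, a mean of -0.32 ± 0.41 (SD, n = 3) turned and -0.35 ± 0.38 as deposited. With arrays centred on named probes its mean was -0.19 ± 0.078 (SD, n = 3).

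Among elongation factors, eEF1alpha2, which brings aminoacyl-tRNA to the ribosome and has a close paralog, was above 0 on every measured array of the turned reading. At 12 h replicates 1, 2 and 3 gave 0.11, 0.38 and 0.46, a mean of 0.32 ± 0.18 (SD, n = 3) and an adjusted p of 0.867. At 7 d replicates 2, 3 and 4 gave 0.36, 0.62 and 1.05, a mean of 0.68 ± 0.35 (SD, n = 3) and an adjusted p of 0.923. As deposited the means were 0.012 ± 0.43 at 12 h and -0.44 ± 0.72 at 7 d (SD, n = 3), so the sign at 7 d depends on the reading. Signal from the paralog cannot be separated from its own on a cDNA probe.

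eEF1delta, a subunit of the exchange factor that recharges eEF1alpha, gave -0.13, 1.05 and -0.17 on 12 h replicates 2, 3 and 4, a mean of 0.25 ± 0.69 (SD, n = 3) that replicate 3 carried. Without replicate 3 it was -0.15, and as deposited it was -0.33 ± 0.63 (SD, n = 3). eEF5, the factor once named eIF5A that carries the hypusine modification, gave 0.49, 0.63 and -0.088 on 12 h replicates 1, 2 and 4, a mean of 0.34 ± 0.38 (SD, n = 3) turned and 0.40 ± 0.28 as deposited. At 2 d it gave 0.13, 0.10, 0.20 and -0.17, a mean of 0.067 ± 0.16 (SD, n = 4) turned and 0.051 ± 0.17 as deposited. At 7 d replicates 2, 3 and 4 gave -0.34, 0.090 and 0.69, a mean of 0.15 ± 0.52 (SD, n = 3) turned and -0.37 ± 0.30 (SD, n = 3) as deposited. With arrays centred on named probes, its turned mean was 0.14 ± 0.38 at 2 d (SD, n = 4) and -0.067 ± 0.26 at 7 d (SD, n = 3).

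Among initiation factors, eIF4A, the RNA helicase of the cap-binding complex, had 1 low array at each of 2 times. At 12 h it gave 0.13, -0.97, 0.75 and 0.14, a mean of 0.012 ± 0.72 (SD, n = 4). At 2 d it gave 0.19, -0.94, 0.35 and 0.25, a mean of -0.038 ± 0.60 (SD, n = 4). As deposited these means were -0.43 ± 0.51 and -0.34 ± 0.46 (SD, n = 4). Replicate 2 was the low array both times, and without it the means were 0.34 and 0.26. At 2 d the named probes had their median at -0.56 on replicate 2, and with arrays centred on named probes eIF4A stood at -0.38 there. eIF4G1, the scaffold that holds eIF4A, gave 0.036, -0.082 and 0.82 on 12 h replicates 1, 2 and 3, and 0.011, -0.56 and 0.30 on the same replicates at 2 d. Its turned means were 0.26 ± 0.49 at 12 h, -0.084 ± 0.44 at 2 d and 0.12 ± 0.41 at 7 d (SD, n = 3 each), all inside their spread. As deposited they were -0.29 ± 0.46, -0.28 ± 0.29 and -0.26 ± 0.28. A second eIF4G1 probe shared 2 arrays with the first and had the same sign on 1 of them.

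Of the eIF3 complex, the scaffold on which the initiation machinery assembles at the small subunit, eIF3f1 and eIF3g1 could be tested. eIF3f1 gave -0.12, -0.72, 0.19 and 0.053 at 2 d, a mean of -0.15 ± 0.40 (SD, n = 4) turned and -0.27 ± 0.31 as deposited, and the turned spread narrowed to -0.074 ± 0.10 (SD, n = 4) with arrays centred on named probes. At 7 d replicates 1, 3 and 4 gave -0.071, 1.30 and 0.40, a mean of 0.55 ± 0.70 (SD, n = 3) turned and -0.59 ± 0.64 (SD, n = 3) as deposited. eIF3g1 at 12 h gave 0.66, -0.69 and -0.82 on replicates 2, 3 and 4, a turned mean of -0.29 ± 0.82 (SD, n = 3). Read as deposited, its 3 arrays agreed closely at 0.72 ± 0.087 (SD, n = 3), with an unadjusted p of 0.040 and an adjusted p of 0.592 in limma. Like RpS7, eIF3g1 had its tightest values in the reading that leaves the dye swap unturned.

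**Figure D3:**
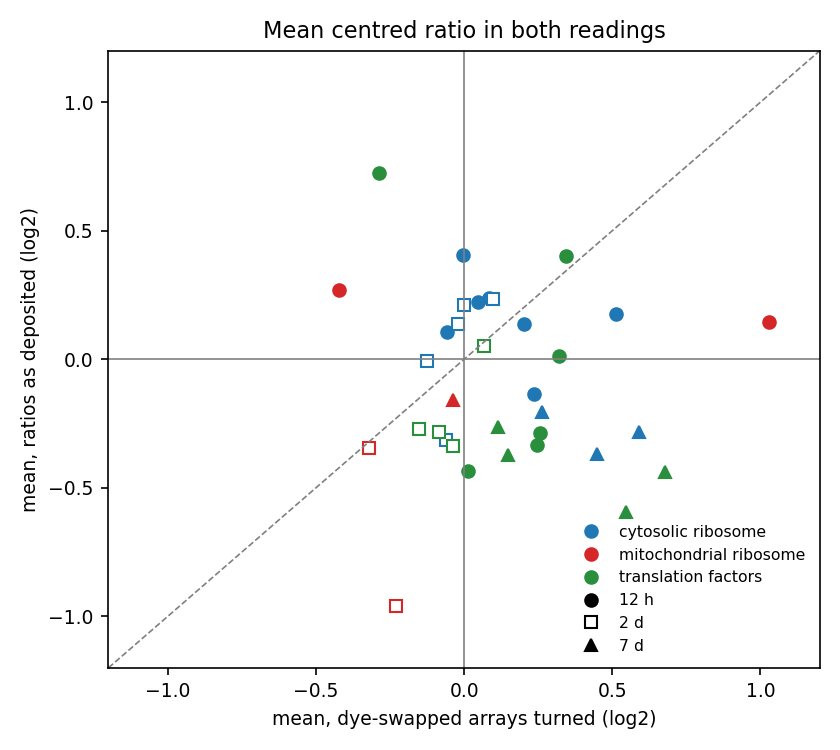
Mean centred log2 ratio of each tested gene at each time with the dye-swapped arrays turned (x axis) and as deposited (y axis). The dashed line marks equal means. All 8 genes of 7 d lie below 0 on the y axis and 7 of them lie above 0 on the x axis.

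The direction of the set as a whole depended on the reading. Of the 34 means of a gene at a time, 16 had opposite signs in the readings. At 12 h, 11 of 15 members had a mean above 0 in each reading, against 45.1% of all tested probes and 49.3% of those with a gene name when turned, and 54.5% and 56.0% as deposited. At 2 d, 3 of 11 were above 0 when turned, where all probes had 41.7% and named probes 25.5%, and 4 of 11 as deposited, where they had 49.2% and 23.0%. At 7 d, 7 of 8 were above 0 when turned, against 58.4% of all probes and 64.1% of named ones, and 0 of 8 as deposited, against 48.6% and 29.6%. Mean sizes were of the same order as those of named probes. Turned, the median absolute mean of the members was 0.25 at 12 h, 0.084 at 2 d and 0.36 at 7 d. Named probes had 0.21, 0.13 and 0.29. As deposited, the members had 0.24, 0.27 and 0.32 at these times, and named probes 0.20, 0.25 and 0.36.

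**Figure D4:**
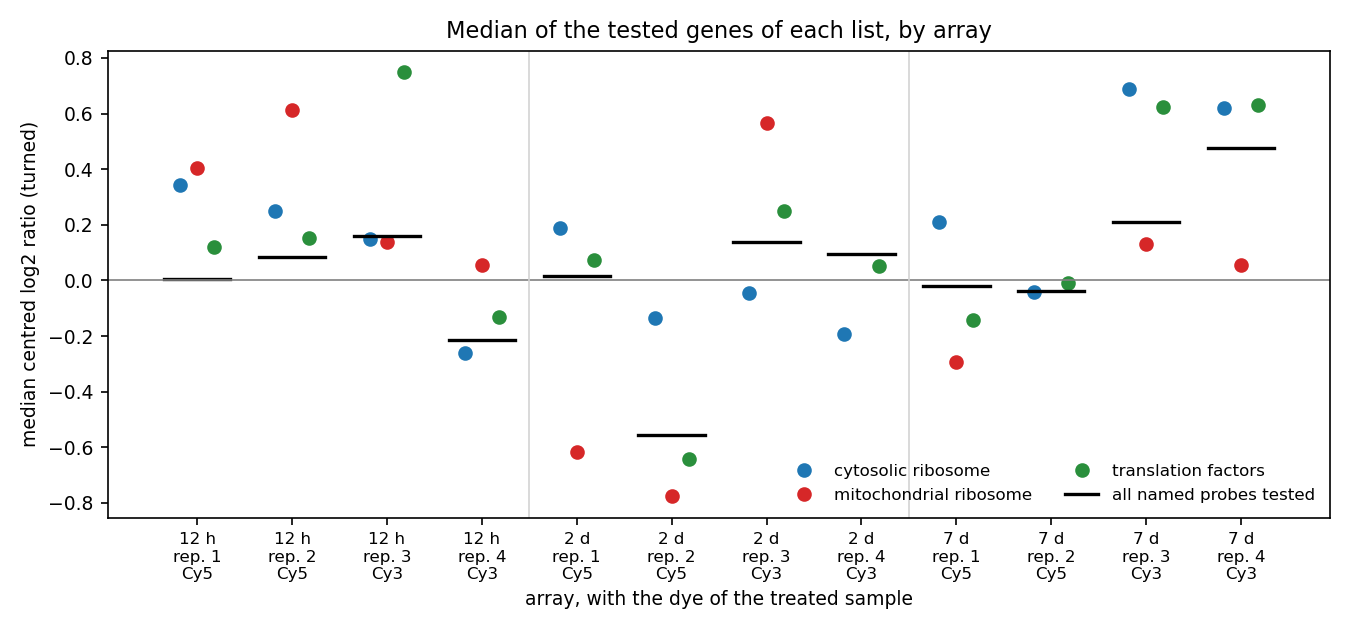
Median centred log2 ratio (y axis, turned) of the tested genes of each list on each of the 12 arrays, labelled with the dye of the treated sample. Black bars give the median of all named probes tested at that time, which is at its lowest on 2 d replicate 2 and at its highest on 7 d replicate 4.

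The cytosolic ribosome, taken as the median of its tested genes on each array, stood at 0.34, 0.25, 0.15 and -0.26 at 12 h (7 genes, mean 0.12 ± 0.27, SD, n = 4). The 12 h mean was 0.045 without replicate 1, 0.077 without replicate 2 and 0.25 without replicate 4. At 2 d it stood at 0.19, -0.14, -0.045 and -0.19 (5 genes, mean -0.047 ± 0.17, SD, n = 4). The 2 d mean was -0.12 without replicate 1, -0.017 without replicate 2 and 0.0023 without replicate 4. As deposited the means were 0.18 ± 0.22 at 12 h and 0.073 ± 0.15 at 2 d (SD, n = 4). At 7 d the medians were 0.21, -0.042, 0.69 and 0.62 (3 genes, mean 0.37 ± 0.35, SD, n = 4). At 7 d both Cy3-treated arrays were higher than both Cy5-treated ones, and as deposited the mean was -0.29 ± 0.44 (SD, n = 4). Centred on named probes, the turned 7 d mean was 0.21 ± 0.20 (SD, n = 4), while the 2 d mean was 0.030 ± 0.33 (SD, n = 4), a wider spread than before. Head markers also varied between arrays, at every time. At 7 d array medians ran from 0.015 to 0.98 for eye, from -0.67 to 0.93 for fat body and from -0.36 to 1.25 for muscle. At 2 d they ran from -0.62 to 0.33 for eye, from -0.30 to 0.063 for fat body and from -1.03 to -0.065 for muscle. At 12 h the ranges were 0.031 to 0.75 for eye, -0.54 to 0.17 for fat body and -0.22 to 0.77 for muscle. On single 7 d arrays the neuronal gene nSyb read 0.69 and the glial list stood at 0.28. The part of these tissues in the 7 d values of any list was not tested.

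The tested genes of the translation factors gave 0.12, 0.15, 0.75 and -0.13 at 12 h (6 genes, mean 0.22 ± 0.37, SD, n = 4) and 0.072, -0.64, 0.25 and 0.053 at 2 d (4 genes, mean -0.067 ± 0.39, SD, n = 4). At 7 d they gave -0.14, -0.0090, 0.62 and 0.63 (4 genes, mean 0.28 ± 0.41, SD, n = 4), and as deposited the 3 means were -0.087 ± 0.44, -0.22 ± 0.31 and -0.35 ± 0.32 (SD, n = 4). Without replicate 3 the 12 h mean was 0.046, and without replicate 4 it was 0.34. The 2 d mean was 0.13 without replicate 2, and -0.11, -0.17 and -0.11 without replicates 1, 3 and 4. The 7 d mean lay between 0.16 and 0.41, with its lowest values when replicate 3 or 4 was left out and its highest when replicate 1 was. With arrays centred on named probes the 2 d spread shrank, to a mean of 0.0097 ± 0.092 (SD, n = 4), and the list's low array, replicate 2, was again the one where named probes had their median at -0.56.

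The mitochondrial ribosome rested on 2 tested genes at 12 h, 2 at 2 d and 1 at 7 d. Its array medians averaged 0.30 ± 0.25 (SD, n = 4) at 12 h, where mRpS34 and mRpS24 had opposite signs, and -0.27 ± 0.73 (SD, n = 3) at 2 d. As deposited these were 0.21 ± 0.36 and -0.65 ± 0.11, and the single gene of 7 d is mRpS34. Leaving out replicate 2 gave 0.20 at 12 h. At 2 d the mean was -0.10 without replicate 1, -0.024 without replicate 2 and -0.70 without replicate 3. When every mitochondrial gene with a value on an array was used in place of the tested ones, a choice made after seeing the data, the 12 h mean became -0.23 ± 0.50 (SD, n = 4, 16 genes) and the 7 d mean -0.28 ± 0.29 (SD, n = 3, 30 genes). The sign at 12 h thus differed with the genes admitted.

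The 3 arrays with the most spots were all Cy3-treated. On 7 d replicate 4, 67 of the 101 genes had a value. There, in the turned reading, the 14 cytosolic genes had a median of 0.71, with 12 above 0 and a range from RpS10a at -0.75 to RpL39 at 1.16. The 29 mitochondrial genes had a median of 0.040, with 15 above 0 and a range from mRpL2 at -3.23 to mRpS7 at 1.25. The 24 factor genes had a median of 0.37, with 17 above 0, from eIF2beta at -0.89 to eIF2Bdelta at 1.32. As deposited every sign on this array is reversed. The medians of the 3 lists were then -0.71, -0.040 and -0.37, with 2, 14 and 7 genes above 0. On this array a probe's height moved with how often it was measured: named probes with values on 1 or 2 arrays had a median of -0.062, those on 3 to 5 arrays 0.12, those on 6 to 9 arrays 0.45 and those on 10 to 12 arrays 0.75, with 95.2% of the last above 0. On 7 d replicate 3 the medians of the same classes were -0.48, -0.17, 0.30 and 0.73 when turned, with 95.5% of the last above 0. On 12 h replicate 3 they were -0.12, 0.11, 0.22 and 0.52. The cytosolic genes are the better covered of the 3 lists, and the part of coverage in their height on these arrays was not tested.

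**Figure D5:**
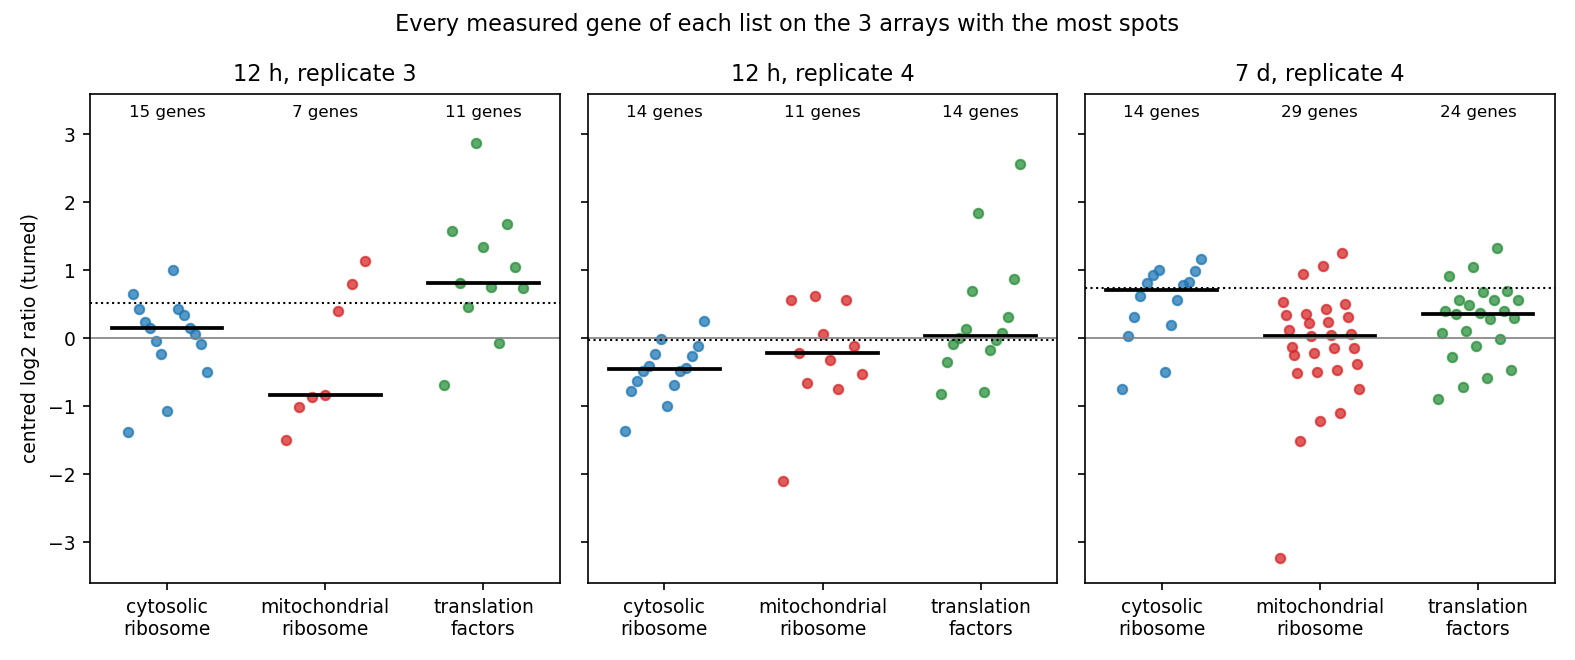
Centred log2 ratio (y axis, turned) of every measured gene of each list on the 3 arrays with the most spots. Solid bars are list medians, and the dotted line is the median of named probes measured on 10 to 12 arrays, at 0.52, -0.028 and 0.75. The cytosolic genes lie mostly below 0 on 12 h replicate 4 and mostly above it on 7 d replicate 4.

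The cytosolic ribosome lay on the other side of 0 on 12 h replicate 4, where 14 genes had a median of -0.45 and 1, RpL15, was above 0. Among named probes there, 62.2% of those on 1 or 2 arrays lay above 0 when turned. For those on 3 to 5, 6 to 9 and 10 to 12 arrays it was 43.3%, 38.1% and 45.2%. This array and 7 d replicate 4 both carry the treated sample in Cy3. The size of the gap between them therefore does not depend on the reading, although its sign does. All 10 cytosolic genes with a value on both arrays were higher at 7 d when turned, by a median of 1.11 log2 units, while 49.8% of 2911 probes on both arrays were higher and the median difference was -0.0070. RpLP0, which forms the base of the stalk that binds elongation factors, went from -0.63 to 0.82, and RpS12 from -0.43 to 0.79. Mitochondrial genes on both arrays were higher in 4 of 8 cases, and factor genes in 6 of 12. This sets 1 array against another and has no replicate check: 12 h replicates 3 and 4, of the same time and dye, also differed, with 2 of 12 cytosolic genes higher on replicate 4 and a median difference of -0.41. Set against 12 h replicate 3 instead, 7 d replicate 4 was higher in 10 of 12 cytosolic genes, by a median of 0.48, next to 55.4% of all probes and a median of 0.16. Factor genes were higher in 3 of 11 cases of that pair and mitochondrial genes in 3 of 6. Well covered named probes moved too between 12 h replicate 4 and 7 d replicate 4, from a median of -0.028 to 0.75 for those on 10 to 12 arrays, and from -0.14 to 0.45 for those on 6 to 9.

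Some members that missed the condition for a test had large values on few arrays. eIF2Bgamma, a subunit of the exchange factor that reloads eIF2 with GTP, read 2.87 and 2.57 on the Cy3-treated arrays of 12 h and -0.27 on 7 d replicate 4. It was the highest member on both 12 h arrays. eIF3k, another subunit of eIF3, read 0.73 and 0.69 on the same 12 h arrays and -0.59 at 7 d. eIF3a, the largest eIF3 subunit, read 1.35 and -0.35 on the 12 h pair, and eIF5B, which joins the subunits at the end of initiation, read 1.68 and 0.0030. At 7 d eIF3a read 0.030 and 0.67 on replicates 3 and 4, and eIF5B read 0.13 on replicate 2 and -0.12 on replicate 4. With no Cy5-treated array, eIF2Bgamma, eIF3k and eIF3a have no dye swap, and no direction can be read for them.

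mRpL2, a core protein of the mitochondrial large subunit, lay below 0 on its 3 arrays when turned, at -0.83 and -0.74 at 12 h and -3.23 at 7 d. As deposited all 3 lay above 0. mRpL40, of the same subunit, read -1.005 and 0.062 at 12 h and -0.66 and -0.22 at 7 d. RpLP0 read -0.49 and -0.63 on the Cy3-treated 12 h arrays, then -0.12 on 7 d replicate 2. RpL29 read -1.38 and -0.47 on the same 12 h arrays and 0.29 on 7 d replicate 3. Values of this kind rest on 1 or 2 arrays of a time and are given as they stand. mRpL2, mRpL40 and RpL29 were measured on Cy3-treated arrays alone, so they too have no dye swap and no direction. RpS10a, RpL34a, RpS5b and RpS19b belong to pairs of paralogs, and their probes may share signal with the other copy. RpS19b, RpL23, RpLP1 and RpS20 had no value on any array.

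The other genes of the pathway, taken from a list that the members' names do not cover, were measured less. The list includes release factors, the poly(A)-binding protein, kinases that act on translation and factors of ribosome assembly. Of its 38 symbols, with Naca also entered under its other name bic, 23 were on the array and 20 had a value. Tests were possible for 3 at 12 h, 1 at 2 d and 0 at 7 d, and 0 passed. pAbp, the poly(A)-binding protein that contacts eIF4G, had means of 0.048 ± 0.52 at 12 h and 0.052 ± 0.44 at 2 d (SD, n = 4). As deposited these were -0.43 ± 0.14 and -0.28 ± 0.31 (SD, n = 4). S6k, the kinase of ribosomal protein S6, had a mean of -0.078 ± 0.13 at 12 h, and Nap1, a histone chaperone, -0.062 ± 0.26 (SD, n = 4 each). As deposited they were -0.11 ± 0.10 and -0.21 ± 0.12. Of 14 aminoacyl-tRNA synthetase genes on the array 11 had a value, and 0 could be tested.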

How the data were processed

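Head RNA of treated and control flies was compared on 12 two-colour arrays, 4 per time. The deposited log2 ratios were made by the authors: per the series text, arrays were quantified in GenePix Pro 6.0 and ratio-normalized in Acuity 4.0, with spots filtered on intensity, flags and signal-to-noise ratio. The base 2 was inferred from the highest values. Adjacent spots were averaged, arrays were centred on their medians, and arrays with the treated sample in Cy3 were turned. Symbols came from the platform annotation, updated through RefSeq Release 6 plus ISO1 MT for 7447 of 7558 probes. For a gene with several probes, the one with most measured arrays stood in. Probes on at least 3 of 4 arrays were tested against 0 with limma 3.58.1 in R 4.3.3, two-sided, with Benjamini-Hochberg adjustment over all probes of a time, and times were compared in 1 fit of 12 arrays. Every member tested at some time is named, and lists carry no test. Alternatives covered reading, centring, scaling, spots, probes, filter, a SAM-type statistic with 16 sign flips and left-out replicates. The members and lists were chosen with earlier results of these data known. The sources used here give no genome build for the array, so no coordinates are printed, and sequences and promoters were not analysed here. Source names of 2 arrays call both channels untreated, and the treatment protocols settled their dyes. The tests were checked on simulated data with planted shifts larger than any tested member mean, so recovery at the sizes seen here was not checked.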

Additional observations from a re-analysis of the deposited data

Results flagged for a closer look

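At 2 d, the centred log2 ratio of eIF4A on replicate 2 was -0.94, far from the other 3 arrays of that time, which lay between 0.19 and 0.35. It was the single value picked out by Dixon's criterion among 18 sets of 4 values of a gene and 7 sets of 4 list medians, and chance picks about 1 set in 20. Named probes tested at 2 d had a median of -0.56 on the same array, and with arrays centred on named probes eIF4A stood at -0.38 there against 0.15 to 0.21 on the others. The part of that offset in the value was not tested.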

How the results depend on the processing

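Calls over all probes stayed at 0 at 12 h, at 2 d and in the 3 contrasts between times under every alternative run. At 7 d they stayed at 0 except with arrays not centred, where 10 of 865 probes passed, and the members' adjusted p was then 0.997. The cause was not tested. As deposited, 16 gene means took the opposite sign: at 12 h RpL17 (0.41), RpL24-like (0.11), RpS15Ab (-0.13), mRpS24 (0.27), eEF1delta (-0.33), eIF3g1 (0.72), eIF4A (-0.43) and eIF4G1 (-0.29); at 2 d RpL15 (0.14); at 7 d RpL27 (-0.28), RpS15Ab (-0.21), RpS28b (-0.37), eEF1alpha2 (-0.44), eEF5 (-0.37), eIF3f1 (-0.59) and eIF4G1 (-0.26). The list means at 7 d moved to -0.29 for the cytosolic ribosome and -0.35 for the factors.

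Without centring, 10 means took the opposite sign: RpL17 (0.50), RpL24-like (0.45), mRpS24 (0.082) and eIF3g1 (0.42) at 12 h, RpS12 (-0.19), RpS7 (-0.0026) and eEF5 (-0.032) at 2 d, and RpS15Ab (-0.11), eEF5 (-0.13) and eIF4G1 (-0.14) at 7 d. The list means were then 0.62, 0.81 and 0.73 for cytosolic ribosome, mitochondrial ribosome and factors at 12 h, and -0.0062 and -0.33 for both ribosomes at 7 d. Centring on named probes, added after seeing the data, gave RpL15 0.058, RpL39 0.075, eIF4A 0.039 and eIF4G1 0.050 at 2 d, and eEF5 -0.067 and eIF4G1 -0.024 at 7 d. Scaling gave RpL17 0.026 and eIF4A -0.028 at 12 h, and RpL15 0.060, RpL39 0.043, RpS12 -0.018, eIF4A 0.12 and eIF4G1 0.035 at 2 d. Cy5-treated arrays alone gave RpL17 0.40, RpL24-like 0.048, eIF4A -0.42 and eIF4G1 -0.023 at 12 h, RpL15 0.12 at 2 d and eIF4G1 -0.11 at 7 d. A dye term gave RpL39 0.051, RpS12 -0.078, mRpS34 0.10 and eIF4G1 0.012 at 2 d. The mean of all probes gave eIF4G1 -0.086 at 12 h. The 12 h mean of the mitochondrial ribosome was -0.014 with genes on at least 2 arrays and -0.23 with every measured gene, and its 7 d mean -0.28 with the latter. More genes enter by construction in these.

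Leaving out each replicate in turn changed the sign of 18 gene means. At 12 h the ranges were -0.16 to 0.25 for RpL17, -0.13 to 0.082 for RpL24-like, -0.087 to 0.20 for RpL3, -0.021 to 0.40 for RpS15Ab, -0.0041 to 0.19 for RpS7, -0.15 to 0.46 for eEF1delta, -0.23 to 0.34 for eIF4A and -0.023 to 0.43 for eIF4G1. At 2 d they were -0.15 to 0.064 for RpL15, -0.28 to 0.16 for RpL39, -0.092 to 0.16 for RpS12, -0.89 to 0.15 for mRpS34, -0.26 to 0.040 for eIF3f1, -0.17 to 0.26 for eIF4A and -0.28 to 0.16 for eIF4G1. At 7 d they were -0.12 to 0.39 for eEF5, -0.11 to 0.28 for eIF4G1 and -0.12 to 0.092 for mRpS34. Replicate numbers 1 and 2 are shared between times in the labels. For these, each probe's deviation from the mean of its time was compared between same-numbered arrays. Over probes tested at every time, these deviations correlated at -0.00017 to 0.17. With the replicate block the contrasts between times called 0 probes. The numbers are not taken to pair the samples. Spot brightness is unknown here, which limits how far a single value can be trusted.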
